A study of Mus musculus with 18 samples.

Results

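Uteri that lacked Tsc2 and were exposed to estradiol alone were compared with Tsc2-null uteri of mice that kept their ovaries. The comparison took 3 KO E2 libraries against 3 KO intact libraries, 6 of the 18 in the series, and was chosen by the sample labels, with no measured value. Both groups came from mice of mixed 129Sv X C57BL/6 background with a deletion of Tsc2 in the uterus, studied at 12 weeks of age. KO E2 mice lost their ovaries at 4 weeks of age and carried a pellet of 0.5 mg of 17β-estradiol, made for release over 90 days, for 8 weeks. KO intact mice kept their ovaries and received no pellet. WT E2 and WT intact mice of the same age and background carried the normal gene and had the same treatments, with 3 libraries each. The Cre driver, the estrous stage of the intact mice and whether each library was 1 animal are not given in the sources used here, so p-values measure the spread between libraries, which may be technical. Each library held messenger RNA from a cross section of uterus, in which epithelium, stroma, muscle, vessels and blood cells are mixed.

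In a cycling mouse, estradiol drives growth and secretion of the uterine epithelium and draws white blood cells into the tissue, while progesterone from the corpus luteum opposes these effects and prepares the stroma for implantation. A constant estradiol pellet after removal of the ovaries acts without that cyclic progesterone. TSC2 forms a complex with TSC1 that restrains the kinase complex mTORC1, so that loss of either protein leaves mTORC1 active.

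Levels are FPKM, fragment counts scaled by transcript length and by the library's mapped total, as deposited by the authors. Differences are log2 differences of FPKM + 1, KO E2 minus KO intact, with the standard error (SE) of a limma fit to all 18 libraries, a scale that understates changes of low genes. A gene was called where its Benjamini-Hochberg adjusted p, taken across every tested gene, was under 0.05. The table listed 25791 genes, and the test covered the 13898 with 1 FPKM or more in 3 or more libraries. Levels are given for KO E2 replicates 1, 2 and 3 and for KO intact replicates 1, 3 and 4, in that order. A level given as 0 was listed at 0 in the authors' table, in any of the genes below, and may be a failed estimate, since Hmgcs1, a sterol synthesis gene that every cell uses, was listed at 0 in all 18 libraries.

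Tsc2 stood at 2.42, 1.75 and 2.28 FPKM in KO E2 and 1.88, 1.98 and 1.62 in KO intact. It was at 2.73, 2.38 and 2.66 FPKM in WT E2 and 2.51, 2.25 and 2.04 in WT intact, so its RNA remained detectable in the KO libraries, and the KO E2 and KO intact levels overlapped (0.15 ± 0.13, adjusted p = 0.405). FPKM summed to between 392260 and 457720 per KO E2 library and between 263080 and 303830 per KO intact library, and read depth is unknown. KO E2 replicate 2 stood apart, as its mean correlation across genes was 0.898 to the other two KO E2 libraries and 0.946 to those of WT E2. Ratios of the lowest values were used to group the libraries into 4 sets, a number chosen beforehand. For each pair of libraries, genes above 0 and up to 0.05 FPKM in both were taken. The measure was the largest share of them with log2 ratios within 0.02 of a common value. This share was 6.42% to 24.6% for pairs in a set. It was 3.03% to 7.21% for pairs of other sets alike in ovaries and 1.875% to 2.94% for pairs unlike in ovaries. The limits between sets of like mice are thus not sharp. No set held both intact and ovariectomized mice, so set and hormone state cannot be told apart. KO E2 replicates 1 and 2 shared a set and replicate 3 was in another, while KO intact replicates 1 and 4 shared a set and replicate 3 was in another.

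Genes of neutrophils, macrophages and the acute phase were far higher in the Tsc2-null uterus under constant estradiol than in the intact one, and 14 of 20 contractile smooth muscle genes and the estrogen receptor gene Esr1 were lower. In all, 3610 genes were called, 26.0% of those tested. Of these, 2190 were higher in KO E2 (15.8% of genes tested) and 1420 were lower (10.2%). Libraries of the compared groups did not overlap for 5660 genes, 40.7% of those tested, 2962 higher (21.3%) and 2698 lower (19.4%). A lack of overlap was thus common among genes at large. Among called genes whose log2 difference was at least 3 in size, 288 were higher and 13 were lower. The balance of directions depended on scaling: after quantile normalization 2143 genes were higher (15.4%) and 3629 lower (26.1%), a share of higher calls of 37.1% where it was 60.7% as deposited. Lower calls also outnumbered higher ones without KO E2 replicate 3, at 2183 against 1978. The median difference of all genes was -0.05 as deposited and -0.17 after quantile normalization. Leaving out KO E2 replicate 2 gave 3170 calls, 2315 higher and 855 lower, of which 2706 were among the 3610. Leaving out KO intact replicate 1 gave 2282 calls. Over the 6 fits that each left out 1 of the compared libraries, 1912 genes were called every time, 1454 higher and 458 lower. Genes called higher made up 12.8%, 16.7% and 14.2% of those tested without KO E2 replicates 1, 2 and 3 and 11.2%, 13.1% and 13.1% without KO intact replicates 1, 3 and 4. Genes called lower made up 4.59%, 6.15% and 15.7% without KO E2 replicates 1, 2 and 3 and 5.21%, 7.28% and 5.32% without KO intact replicates 1, 3 and 4.

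**Figure D1:**
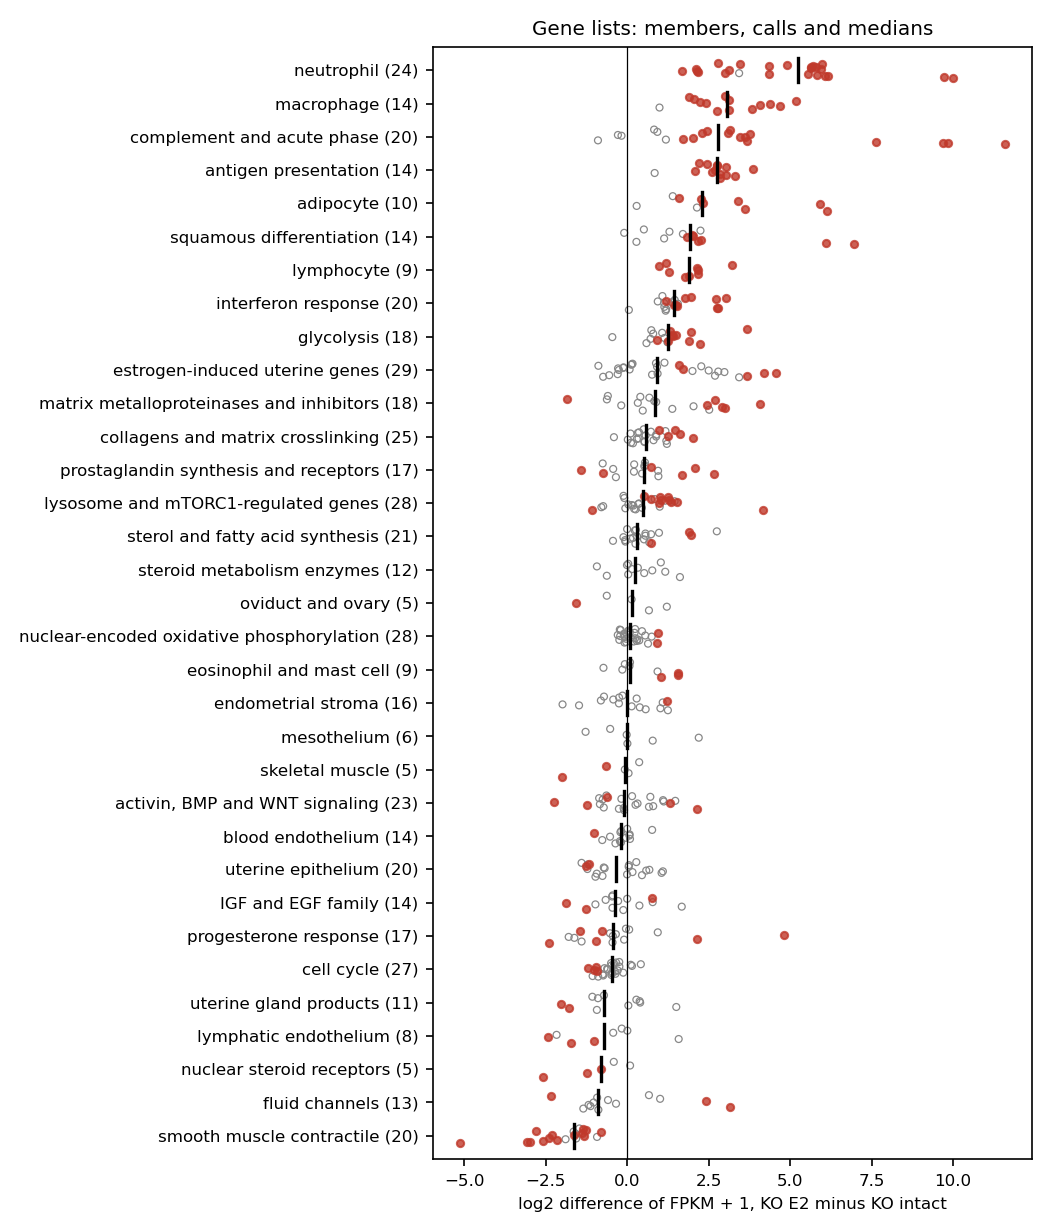
Log2 difference of FPKM + 1 between KO E2 and KO intact for the tested members of each gene list with 5 or more of them, 1 point per gene, filled where called and open where not, with a bar at the list's median. Neutrophil genes lie farthest to the right, with a median of 5.23, and contractile genes of smooth muscle have a median of -1.64.

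The largest difference was that of Saa3, which encodes a serum amyloid A protein that mouse tissues make in the acute phase outside the liver. It stood at 23859, 1449.5 and 4780.5 FPKM in KO E2 and 0.168, 0.731 and 1.8 in KO intact (11.59 ± 1.37, adjusted p = 2.00e-05). The lowest KO E2 library lay far above the highest intact one, and KO E2 replicate 1 was far above the other two. Saa1, a serum amyloid A of the circulation, was at 4883, 286 and 972 FPKM against 0.045, 0.157 and 0.438 (9.85 ± 1.18, adjusted p = 2.27e-05). Saa2 was at 4384, 257 and 866 FPKM against 0.045, 0.159 and 0.441 and ran at 0.861 to 0.907 of the level of Saa1 in the 10 libraries where both reached 0.5 FPKM, so reads of these near-identical copies may have been split between them. Haptoglobin (Hp), which binds free hemoglobin, was at 1783, 57.6 and 1057 FPKM against 0.378, 1.89 and 2.64 (7.62 ± 1.23, adjusted p = 0.000360). Replicate 2 was the lowest KO E2 library for each of these 4 genes. Their groups did not overlap, which the rule for naming the largest differences required.

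Upstream stretches of the Saa genes are shown because these genes were the most changed of the acute phase list and share a short match. They are the 250 bases before the RefSeq gene start on GRCm38.p6, at chr7:46742981-46743230 on the minus strand for Saa1, chr7:46751583-46751832 on the plus strand for Saa2 and chr7:46715677-46715926 on the minus strand for Saa3. Capitals mark TTGCNNAA, searched on both strands, a core of the sites bound by C/EBP factors, which act on acute phase genes in liver.
Saa1: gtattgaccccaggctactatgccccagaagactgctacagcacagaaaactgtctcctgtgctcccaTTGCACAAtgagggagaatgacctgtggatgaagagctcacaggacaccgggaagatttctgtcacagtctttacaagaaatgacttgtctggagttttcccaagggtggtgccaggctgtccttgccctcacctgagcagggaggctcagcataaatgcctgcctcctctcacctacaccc
Saa2: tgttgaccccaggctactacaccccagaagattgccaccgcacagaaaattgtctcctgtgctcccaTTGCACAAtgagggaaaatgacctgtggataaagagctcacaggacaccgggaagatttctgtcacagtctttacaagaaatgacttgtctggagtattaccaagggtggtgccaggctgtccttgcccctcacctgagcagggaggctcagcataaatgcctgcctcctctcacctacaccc
Saa3: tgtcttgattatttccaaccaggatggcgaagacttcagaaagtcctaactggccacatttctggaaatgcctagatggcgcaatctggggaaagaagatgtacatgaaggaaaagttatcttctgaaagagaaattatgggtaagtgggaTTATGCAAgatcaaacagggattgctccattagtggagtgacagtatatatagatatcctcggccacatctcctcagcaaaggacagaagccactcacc
Aligned end to end, the Saa1 and Saa2 stretches were identical at 94.8% of 251 positions, and those of Saa1 and Saa3 at 49.6% of 262. The match ended 175, 176 and 92 bases before the start of Saa1, Saa2 and Saa3. Among called members of the complement and acute phase list, 8 had a promoter in the RefSeq table and 4 of them held the match (Saa1, Saa2, Saa3 and C3). It was found in 9.12% of the 8748 tested genes with a promoter there and in 11.9% of the 1363 of these called higher. A match describes letters and is no evidence of binding. In all, 6 motifs were searched in the same windows.

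Across the complement and acute phase list, 14 of 20 tested members rose and none fell, with a median difference of 2.77 beside -0.05 for all genes. C3, the central complement protein and a classical estrogen-induced product of the rodent uterus, was at 114, 317 and 190.2 FPKM in KO E2 and 13.1, 14.3 and 14.8 in KO intact (3.67 ± 0.99, adjusted p = 0.0139). The intact levels lay close together and well below those of KO E2. C4b, which encodes complement C4, was similar in the libraries of each group, at 25.7, 28.1 and 29.1 FPKM against 1.36, 1.65 and 1.04 (3.61 ± 0.43). Cfb, factor B of the alternative pathway, was at 41.2, 224 and 35.1 FPKM against 4.34, 4.72 and 7.24 (3.47 ± 0.76), and replicate 2 was the highest. Properdin (Cfp), which stabilizes the alternative convertase, rose by 3.77 ± 0.43, and the receptors for C5a and C3a rose by 3.16 ± 0.31 (C5ar1) and 2.44 ± 0.37 (C3ar1). Regulators of complement were mixed: the C1 inhibitor gene Serping1 rose by 2.30 ± 0.61, a call that ended without KO E2 replicate 1, whereas factor I did not pass the test (Cfi -0.29 ± 0.61).

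Neutrophil genes had the largest median difference of the gene lists. Of 24 tested members 23 rose and none fell, with a median difference of 5.23, or 4.36 without the 6 members listed at 0 in all KO intact libraries. Members near 0 in KO intact could pass the filter through KO E2 alone and could then hardly fall. The count of directions is thus partly set by the filter, here and in the lists below. With a filter of 5 FPKM, 17 of 18 tested members were called higher. From 22 to 23 members were called whichever of the 6 libraries was left out. S100a8 and S100a9 encode the subunits of calprotectin, a major protein of neutrophil cytosol. S100a8 was at 7663, 708 and 629 FPKM in KO E2 and 0.745, 0.101 and 0.653 in KO intact (10.00 ± 1.28, adjusted p = 4.06e-05), and S100a9 was at 6226, 674 and 578 FPKM against 0.54, 0.395 and 0.89 (9.72 ± 1.21). No intact library reached 1 FPKM of either gene, all KO E2 libraries were far above that, and replicate 1 was far above the other two. Retnlg, a resistin-like protein of granulocytes, was at 343, 24.5 and 43.5 FPKM against 0.0409, 0.0453 and 0 (6.15 ± 0.82).

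Genes of granule proteins, which neutrophils make while they mature, were among them. Camp, the cathelicidin gene, was at 162, 22.9 and 29.8 FPKM in KO E2 and 0.0989, 0 and 0.0436 in KO intact (5.56 ± 0.54, adjusted p = 3.37e-06). Ngp, the neutrophilic granule protein, was at 286, 14.8 and 49.7 FPKM against 0.0751, 0.0207 and 0.116 (5.84 ± 0.78). Elane (neutrophil elastase) and Mpo (myeloperoxidase) were lower in level and rose by 2.18 ± 0.25 and 1.67 ± 0.29. Surface receptors had small errors. Csf3r, the receptor for granulocyte colony-stimulating factor, was at 13.5, 5.51 and 10.0 FPKM against 0.0765, 0.176 and 0.211 (3.13 ± 0.23, adjusted p = 3.20e-07), and Fpr2, a formyl peptide receptor, was at 50.4, 12.4 and 41.5 FPKM against 0.0277, 0.0423 and 0.0363 (4.90 ± 0.38). The groups did not overlap for any of these genes, and each was called whichever library was left out.

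Signals that draw or activate neutrophils were higher too. Cxcl2, a neutrophil chemokine, was at 423, 47.7 and 12.4 FPKM against 0.0164, 0.0971 and 0.0147 (5.97 ± 0.97). Il1b, which encodes interleukin-1 beta, was at 163, 42.9 and 32.1 FPKM against 0.0154, 0.269 and 0.296 (5.71 ± 0.59). The stefin A genes, inhibitors of cysteine proteases that are abundant in myeloid cells, were led by replicate 1. Stfa3 was at 975, 19.4 and 13.9 FPKM in KO E2 and Gm5483, of the same cluster, at 1096, 23.5 and 16.3, and both were listed at 0 in all 3 intact libraries (adjusted p = 0.00210 and 0.00159). Gm5483 ran at 1.09 to 1.58 of the level of Stfa3 over 7 libraries, and reads shared between them cannot be set apart. Ltf, lactoferrin, is both a granule protein and an estrogen-induced epithelial product, and did not pass the test (192, 1665 and 29.6 FPKM against 8.81, 18.1 and 40.5, 3.43 ± 2.29). In bulk tissue, more or fewer cells of a type cannot be told apart from more or less RNA per cell. This holds for neutrophils and for each cell type below. The 24 neutrophil markers summed to 20020.0, 3732 and 1694 FPKM in KO E2 and 33.6, 62 and 77.1 in KO intact. These sums include Ltf, at the levels above, so part of them may be epithelial, most of all in KO E2 replicate 2 and in KO intact.

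Macrophage genes rose nearly as evenly, 13 of 14 tested members, with a median of 3.06 and with 13 to 14 called whichever library was left out. Csf1r, the receptor for colony-stimulating factor 1, was at 28.7, 16.3 and 57.3 FPKM in KO E2 and 1.21, 1.29 and 1.1 in KO intact (3.82 ± 0.45, adjusted p = 2.00e-05). The C1q genes, whose products start the classical complement pathway and come mainly from macrophages, rose by 4.68 ± 0.57 (C1qa), 4.06 ± 0.64 (C1qb) and 4.37 ± 0.59 (C1qc). Lyz2, the lysozyme of myeloid cells, was at 411, 362 and 2469.7 FPKM against 13.2, 21.3 and 23 (5.19 ± 1.25, adjusted p = 0.00719). Mrc1, a mannose receptor of resident macrophages, missed the threshold (0.99 ± 0.35, adjusted p = 0.0502), and Marco and Cd163 were too low to be tested. Replicate 3 was the highest KO E2 library for Csf1r and Lyz2, whereas replicate 1 was the highest for S100a8, Camp and Il1b. The macrophage markers summed to 746, 673 and 3418 FPKM in KO E2 and 36.2, 45.9 and 45.3 in KO intact.

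All 9 lymphocyte genes that could be tested rose, with a median of 1.90, while 8 others were too low. A gene low in KO intact could enter the test through the 3 KO E2 libraries alone and could then hardly fall. The count of directions is thus partly set by the filter. With a filter of 5 FPKM only 1 member was tested, and it was called higher. Cd3g, a chain of the T-cell receptor complex, was at 5.18, 5.19 and 3.72 FPKM against 0.355, 0.341 and 0.087 (2.17 ± 0.27, adjusted p = 3.10e-05). Its KO E2 levels were close to each other and all were above the intact ones. Cd79a, a chain of the B-cell receptor complex, was at 1.59, 1.17 and 27.2 FPKM against 0.184, 0.284 and 0.117 (2.18 ± 0.68, adjusted p = 0.0280), led by replicate 3. Igj, the joining chain of secreted antibodies, was likewise highest in replicate 3, at 72.9, 65.3 and 632 FPKM against 17.4, 18.3 and 9.66 (3.23 ± 1.04). Without KO intact replicate 4 the list had 5 calls, and without KO intact replicate 1 or 3 it had 6. Cd79a was not called without any 1 of the KO intact libraries, and Igj was also lost without KO E2 replicate 3.

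**Figure D2:**
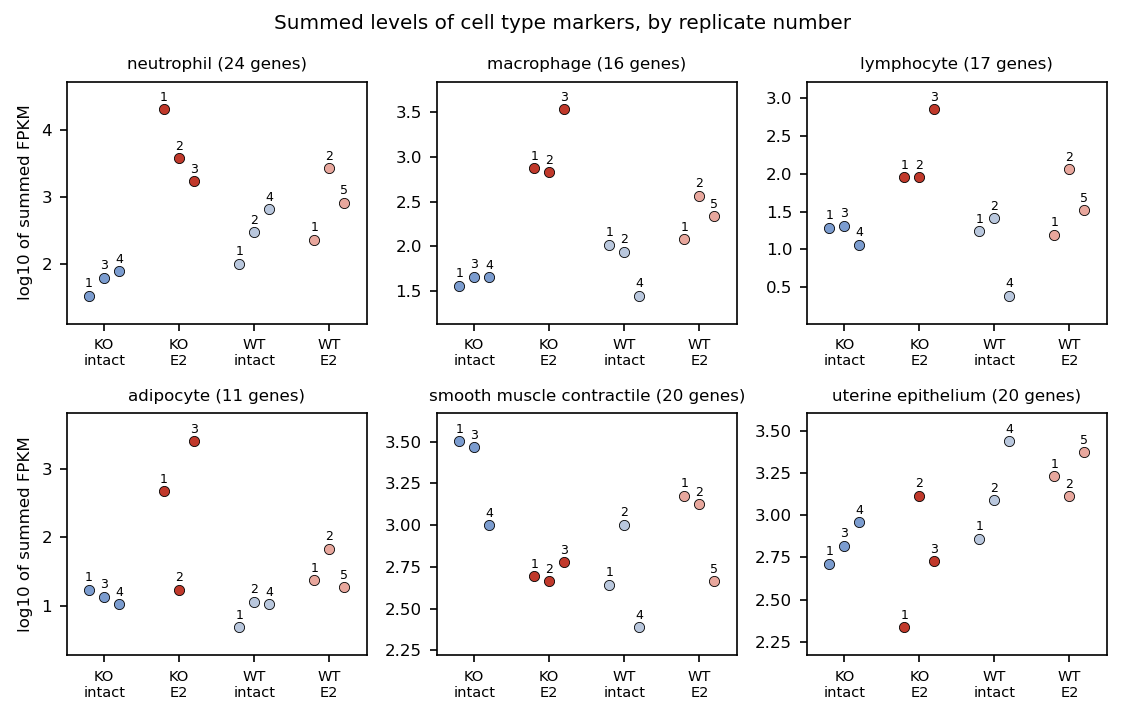
Summed FPKM of the members of 6 cell type marker lists in each library, on a log10 scale, with the replicate number at each point. The neutrophil list includes Ltf, which is also an epithelial product. KO E2 libraries lie above all KO intact libraries for neutrophil, macrophage and lymphocyte markers and below all of them for smooth muscle markers, and KO E2 replicate 2 has the least adipocyte and the most epithelial signal of its group.

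Antigen presentation genes rose in 13 of 14 tested members, with a median of 2.75. H2-K1, a class I histocompatibility gene, was at 371, 1354 and 509.5 FPKM in KO E2 and 33.3, 44.5 and 52.8 in KO intact (3.86 ± 0.51, adjusted p = 5.66e-05). B2m, the light chain of class I molecules, was at 459.6, 1249.6 and 859.9 FPKM against 101, 132 and 137 (2.68 ± 0.49). H2-Q8, another class I gene, was among the 15 largest differences, at 186, 758 and 245 FPKM against 3.84, 3.53 and 4.99 (6.01 ± 0.53), and may share reads with other class I genes. The intact libraries were low and close to each other for all 3 genes. Cd74, the class II invariant chain, was at 160.4, 967 and 454 FPKM against 52.5, 71.2 and 47.8 (2.85 ± 0.98, adjusted p = 0.0438), and it lost its call without KO E2 replicate 2 or 3 or any 1 intact library. Tap1 and Tap2, which carry peptides to class I molecules, rose by 2.74 ± 0.59 and 2.75 ± 0.46. Replicate 2 had the highest KO E2 level of each of these genes. The list fell to 7 calls without KO E2 replicate 2 or without KO intact replicate 4 and to 8 without KO intact replicate 1.

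Interferon response genes were called in 10 of 20 tested members, all higher, beside 15.8% of all genes tested, with a median of 1.44. Isg15, a ubiquitin-like protein induced by interferons, was at 11.1, 32.3 and 22.2 FPKM in KO E2 and 1.63, 2.38 and 2.44 in KO intact (2.75 ± 0.58, adjusted p = 0.00295). Cxcl10, a chemokine for T cells, was at 6.17, 14.4 and 7.66 FPKM against 0.32, 0.236 and 0.0755 (3.03 ± 0.61), and Bst2, the antiviral protein tetherin, was at 123, 231 and 62.6 FPKM against 17.3, 19.6 and 15.3 (2.74 ± 0.42). These and Irf7, a factor that amplifies interferon signaling (2.80 ± 0.60), were called whichever library was left out, and their groups did not overlap. The other 6 calls ended in at least 1 such fit, so that the list had 4 calls without KO E2 replicate 2 and likewise without KO intact replicate 1 or 4. Mx1, Ifit1 and Ifit3, antiviral effectors, did not pass the test (1.36 ± 0.56, 1.18 ± 0.59 and 1.2 ± 0.61).

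Stretches around the interferon-stimulated response element are shown for the 3 genes with a match whose calls held in every such fit. Capitals mark the element, taken as GAAA, any 2 bases and GAAA on either strand, with overlapping matches joined, in 70-base windows on GRCm38.p6 from RefSeq, all on the minus strand: chr4:156200845-156200914 for Isg15, chr5:92349063-92349132 for Cxcl10 and chr8:71537557-71537626 for Bst2.
Isg15: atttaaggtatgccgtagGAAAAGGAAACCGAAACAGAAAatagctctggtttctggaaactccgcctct
Cxcl10: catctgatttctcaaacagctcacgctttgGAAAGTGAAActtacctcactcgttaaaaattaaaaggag
Bst2: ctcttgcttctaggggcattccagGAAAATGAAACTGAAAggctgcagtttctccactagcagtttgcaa
The Isg15 window holds 3 overlapping matches, that of Bst2 holds 2 and that of Cxcl10 holds 1. Bases just after the RefSeq start were found in a GENCODE transcript of Isg15 and of Cxcl10 but in none of Bst2. The place of the Bst2 window is thus less sure. Of 9 called interferon genes with a promoter in the table, 7 held a match, and so did 9 of the 15 members of the list with a promoter, including Ifit1 and Ifit3, which were not called. The share was 3.25% of tested genes with a promoter and 3.46% of all 27018 promoters. A match was thus present in called and in uncalled members of the list.

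Of 5 steroid receptor genes that could be tested, 3 fell and none rose, beside 10.2% of all genes tested called lower. Esr1 alone was called in each of the 6 fits without 1 compared library. The list had 1 call without KO E2 replicate 1 or KO intact replicate 1, 2 without KO E2 replicate 3 or KO intact replicate 3 or 4, and 3 without KO E2 replicate 2. Esr1, which encodes estrogen receptor alpha, was at 0.612, 1.99 and 1.22 FPKM in KO E2 and 14.8, 8.55 and 14.7 in KO intact (-2.60 ± 0.33, adjusted p = 3.57e-05). All KO E2 libraries were below 2 FPKM, and no intact library was below 8. Pgr, the progesterone receptor gene and an estrogen target in the uterus, was at 2.25, 3.13 and 1.52 FPKM against 6.08, 5.72 and 8.02 (-1.22 ± 0.41, adjusted p = 0.0391). The groups did not overlap for Pgr, but the call ended without KO E2 replicate 1 or 3 or any 1 intact library. The glucocorticoid receptor gene Nr3c1 was at 3.08, 1.21 and 5.25 FPKM against 2.5, 3.26 and 2.15 and the membrane estrogen receptor gene Gper at 0.162, 0.0801 and 0.14 FPKM against 0.375, 0.651 and 0.487, and neither passed the test. Esr2 and Nr3c2 were too low to be tested.

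Of 17 tested progesterone response genes, 4 fell and 2 rose, with a median of -0.45. Of all genes tested, 10.2% were called lower and 15.8% higher. Ihh, the hedgehog ligand that carries the progesterone signal from epithelium to stroma, was at 0.0828, 0.0188 and 0.39 FPKM in KO E2 and 3.21, 4.82 and 8.08 in KO intact (-2.39 ± 0.61, adjusted p = 0.00994). No KO E2 library reached 0.4 FPKM, every intact one exceeded 3, and the call held in all 6 fits. Nr2f2, a stromal nuclear receptor that acts below Ihh, was at 3.29, 4.19 and 4.92 FPKM against 9.16, 8.08 and 9.34 (-0.95 ± 0.25, adjusted p = 0.0110). The epithelial factor Sox17 and the progesterone receptor partner Gata2 fell by 1.46 and 0.78 on the log2 scale. Lower calls numbered 1 (Ihh) without KO E2 replicate 1, 2 without KO E2 replicate 3 or any 1 intact library, and 4 without KO E2 replicate 2. Members that moved the other way were Irg1, an enzyme induced by progesterone in uterine epithelium and by inflammation in macrophages, at 65, 26 and 14.1 FPKM against 0.0479, 0.0375 and 0.097 (4.82 ± 0.67), and Wnt4, a WNT ligand of decidualizing stroma, at 7.25, 5.86 and 5.21 FPKM against 0.467, 0.192 and 1.41 (2.13 ± 0.37). Both were called in every fit. The homeobox genes Hoxa10 and Hoxa11 were at 5.6, 5.28 and 4.77 FPKM against 22.4, 15 and 17.6 and 4.04, 3.2 and 2.47 FPKM against 15.8, 10.6 and 14.8 and, with groups that did not overlap, missed the threshold (-1.62 ± 0.84, adjusted p = 0.164, and -1.80 ± 0.80, adjusted p = 0.110).

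**Figure D3:**
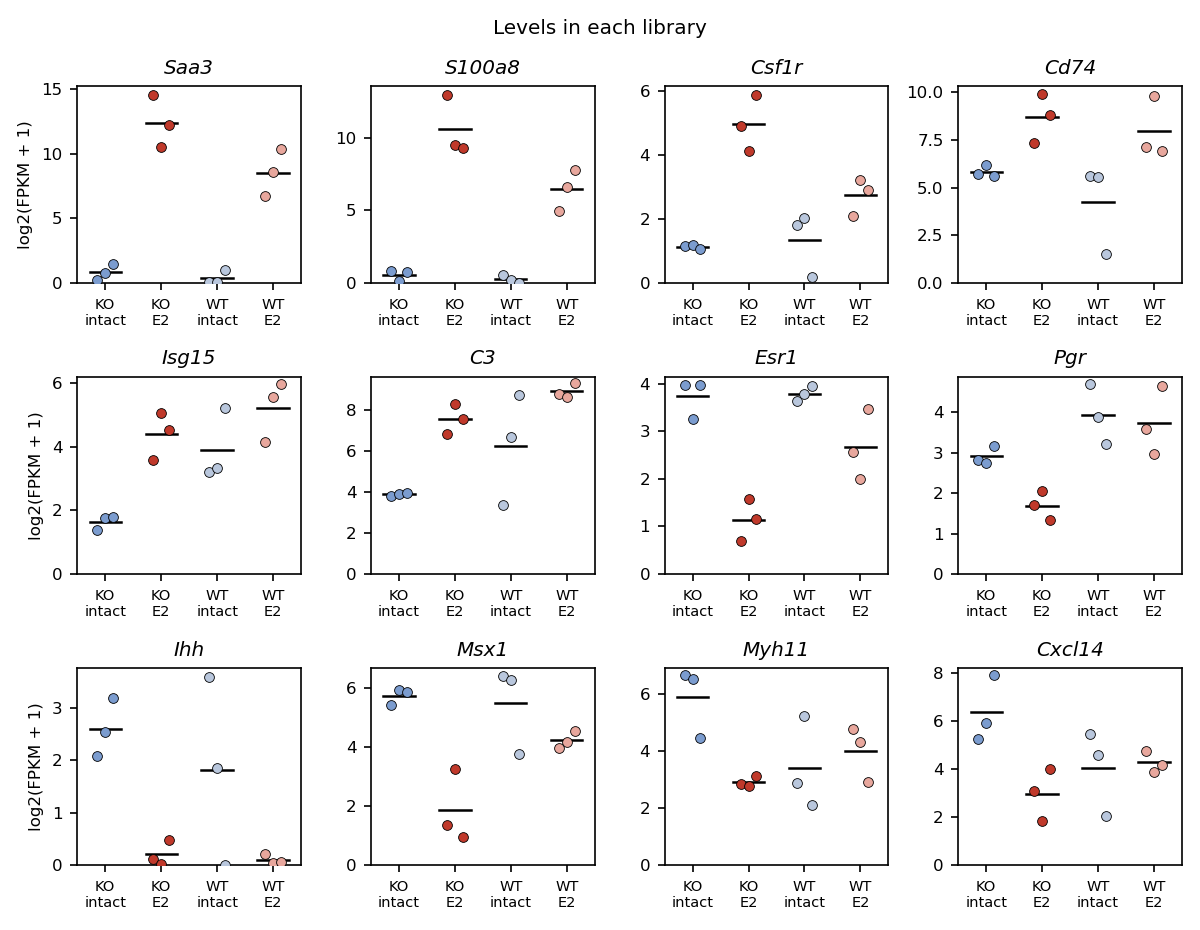
Level of 12 genes as log2(FPKM + 1) in each library of the KO and WT intact and E2 groups, 1 point per library with a bar at the group mean. Saa3, S100a8, Csf1r, Cd74, Isg15 and C3 are higher in every KO E2 library than in every KO intact library, and Esr1, Pgr, Ihh, Msx1, Myh11 and Cxcl14 are lower.

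Genes known to be induced by estradiol in the uterus were mostly not called. Of 29 members 5 rose, beside 15.8% of all genes tested called higher, none fell, and the median was 0.92. Besides C3, the called genes were Sprr2a and Sprr2b, cornified envelope proteins of the uterine epithelium (4.56 ± 1.38 and 4.19 ± 1.42), Clca1, a secreted regulator of chloride channels (1.72 ± 0.52), and Cdkn1a, a cell cycle inhibitor (1.58 ± 0.52). Lcn2, lipocalin 2, was at 637, 3063 and 144 FPKM against 48, 144 and 146 (2.69 ± 1.5, adjusted p = 0.195). Muc1, the apical mucin, was at 8.84, 83.9 and 2.28 FPKM against 21.6, 15.1 and 34 (-0.74 ± 0.89, adjusted p = 0.566). Replicate 2 had by far the highest level of both, and replicate 3 lay within or below the intact range. Without KO E2 replicate 2 the list had 1 higher and 2 lower members, without KO intact replicate 1 it had 1 higher, and without KO E2 replicate 1 or KO intact replicate 3 or 4 it had 3. C3 was the only member called in every such fit.

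The lowest genes relative to KO intact included stromal and epithelial factors. Msx1, a homeobox factor that keeps the uterus receptive to implantation, was at 1.57, 8.57 and 0.938 FPKM in KO E2 and 41.7, 60.3 and 58 in KO intact (-3.89 ± 0.68, adjusted p = 0.000695). The groups were well apart, with replicate 2 the highest of KO E2. Fzd10, a WNT receptor, was at 0.183, 0.344 and 0.811 FPKM against 10.7, 8.04 and 17.3 (-3.13 ± 0.37, adjusted p = 2.17e-05). Rspo3, a secreted enhancer of WNT signaling, was at 1.67, 0.566 and 0.636 FPKM against 17.8, 21.2 and 5.02 (-2.84 ± 0.71). Egfl6, a secreted matrix protein, was at 0.264, 1.72 and 0.542 FPKM against 19.6, 14 and 43.1 (-3.78 ± 0.56), and Serpinb11, a serine protease inhibitor of the ovalbumin family, at 0.0411, 0.634 and 0.0196 FPKM against 19.5, 15.7 and 40.2 (-4.33 ± 0.50). All 5 were called whichever library was left out. Cxcl14, a chemokine of the uterine epithelium, was at 7.54, 2.54 and 15 FPKM against 36.7, 60.0 and 238 (-3.38 ± 0.92, adjusted p = 0.0148), but its call ended without KO E2 replicate 2 or KO intact replicate 4. Of the 15 largest decreases 10 held in all 6 fits, and of the 15 largest increases 14 did. The exception among the increases was Cfd, complement factor D or adipsin, which was at 257, 0.104 and 1212 FPKM in KO E2 and listed at 0 in KO intact.

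Contractile smooth muscle genes fell in 14 of 20 tested members and rose in none, with a median of -1.64. Pcp4, a calmodulin regulator abundant in myometrium, was at 2.82, 9.23 and 2.14 FPKM in KO E2 and 387, 321 and 40.0 in KO intact (-5.12 ± 0.98, adjusted p = 0.00148). Myh11, the smooth muscle myosin heavy chain, was at 6.15, 5.78 and 7.79 FPKM against 103, 91.4 and 21.2 (-2.99 ± 0.76, adjusted p = 0.0100). KO E2 libraries were alike, while KO intact replicates 1 and 3 were well above replicate 4. Mylk, the myosin light chain kinase, was at 12.7, 5.32 and 8.0 FPKM against 117, 110.5 and 33.3 (-3.06 ± 0.80, adjusted p = 0.0114), and Cnn1, calponin, at 3.66, 5.36 and 8.69 FPKM against 60.1, 57.5 and 16 (-2.58 ± 0.70, adjusted p = 0.0141). Synpo2, an actin-bundling protein, was at 0.444, 0.534 and 0.708 FPKM against 19.9, 14.5 and 2.92 (-2.80 ± 0.68), and Actn1, alpha-actinin 1, at 14.6, 17.9 and 14.7 FPKM against 43.1, 41.4 and 40.6 (-1.36 ± 0.19, adjusted p = 0.000111). The smooth muscle actin Acta2 was at 67.4, 80.0 and 117 FPKM against 639, 556 and 165 (-2.16 ± 0.68, adjusted p = 0.0297). It may share reads with Actg2 and Acta1. Tagln, transgelin, was at 25, 36.9 and 46 FPKM against 202, 219 and 52 and did not pass the test (-1.89 ± 0.78, adjusted p = 0.0869).

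The number of lower contractile genes depended on which intact library was included. It was 3 without KO intact replicate 1, 5 without replicate 3, 16 without replicate 4 and 8 without KO E2 replicate 1, and Pcp4, Synpo2 and Actn1 were called in each of the 6 fits. After quantile normalization 18 members were lower. The 20 markers summed to 493, 463 and 600.2 FPKM in KO E2 and 3191, 2929.9 and 996 in KO intact. The part of muscle content in these differences was not tested.

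Glycolysis genes were called higher in 10 of 18 tested members, beside 15.8% of all genes tested, with a median of 1.25. Slc16a3, which exports lactate, was at 41.2, 16 and 10.8 FPKM in KO E2 and 0.226, 0.803 and 0.80 in KO intact (3.69 ± 0.57, adjusted p = 0.000260). Slc2a1, the glucose transporter GLUT1, was at 34.6, 13.7 and 11.1 FPKM against 2.78, 1.8 and 4.76 (2.23 ± 0.47), and Pfkl, a phosphofructokinase, at 11.9, 9.78 and 10.1 FPKM against 1.75, 2.15 and 2.38 (1.91 ± 0.32). These 3 held whichever library was left out and their groups did not overlap. Ldha, lactate dehydrogenase A, was at 229.5, 157 and 140.1 FPKM against 54.7, 77.3 and 76.4 and passed the test narrowly (1.31 ± 0.46, adjusted p = 0.0498). The list had 3 calls without KO E2 replicate 1 and 5 without KO intact replicate 1 or 4.

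Among lysosome and mTORC1-regulated genes, 10 of 28 tested members rose and 1 fell, with a median of 0.48. Of all genes tested, 15.8% were called higher and 10.2% lower. Ctss, cathepsin S of antigen-presenting cells, was at 68.3, 99.8 and 187 FPKM in KO E2 and 5.58, 4.37 and 5.44 in KO intact (4.17 ± 0.44, adjusted p = 6.42e-06). Ctsa and Hexa, lysosomal hydrolases found in most cells, rose by less, 1.33 ± 0.28 and 1.29 ± 0.25. Rragd, a GTPase that helps place mTORC1 at the lysosome, fell from an already low level, at 0.962, 0.519 and 0.659 FPKM against 2.49, 2.35 and 2.95 (-1.08 ± 0.21, adjusted p = 0.00142). Most subunits of the proton pump did not pass the test, among them Atp6v1a (0.14 ± 0.42) and Atp6v1b2 (0.03 ± 0.32), while Atp6v0a1 rose by 0.99 ± 0.23. Without KO E2 replicate 1 the list had 6 higher members. Macrophage markers moved with Ctss, at the sums given above, and their part in the list's difference was not tested.

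Of 18 matrix metalloproteinases and inhibitors, 5 rose and 1 fell, beside 15.8% of all genes tested called higher and 10.2% lower. Mmp13, a collagenase, was at 99.6, 2.19 and 21.8 FPKM in KO E2 and 0.00566, 0.0567 and 0.394 in KO intact (4.09 ± 0.80, adjusted p = 0.00174). Mmp9, a gelatinase that neutrophils and macrophages carry, was at 32.5, 4.13 and 26.1 FPKM against 0.722, 0.96 and 2.23 (2.91 ± 0.51), and Timp1, an inhibitor of these enzymes, at 62.4, 9.64 and 28.1 FPKM against 1.65, 4.12 and 4.2 (2.71 ± 0.58). Mmp8, a neutrophil collagenase, and Mmp12, a macrophage elastase, rose by 3.00 ± 0.56 and 2.43 ± 0.59. Timp3, an inhibitor bound to matrix, was at 8.32, 6.19 and 8.42 FPKM against 29.8, 40.7 and 22.2 (-1.85 ± 0.54, adjusted p = 0.0205), a call that ended without KO E2 replicate 2 or KO intact replicate 1 or 3. Replicate 2 was the lowest KO E2 library for all of the higher members, and without it 10 members rose. The collagens themselves were less clear. Of 25 collagen and crosslinking genes 5 rose, beside 15.8% of all genes tested. None rose without KO E2 replicate 1, and 1 did without KO intact replicate 1. Calls numbered 2 without KO E2 replicate 3, 3 without KO intact replicate 3 and 10 without KO E2 replicate 2. Col1a1, a chain of type I collagen, was at 152, 30.9 and 131 FPKM against 26.4, 26.7 and 66.2 (1.22 ± 0.79, adjusted p = 0.267).

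Uterine epithelium genes were mostly not called, with 2 of 20 lower and none higher, beside 10.2% of all genes tested called lower. Grhl2 and Esrp1, which maintain epithelial identity, were the called members, lower by 1.16 and 1.26 on the log2 scale. Neither call held in all 6 fits that left out 1 library. Epcam, an epithelial adhesion molecule, was at 9.37, 101 and 14.7 FPKM against 36, 45.8 and 71.9 (-0.98 ± 0.69, adjusted p = 0.309), and Krt8, a simple epithelial keratin, at 18.5, 114 and 76 FPKM against 29.2, 75.7 and 74.5 (-0.00 ± 0.69). The 20 markers summed to 218, 1302 and 535 FPKM in KO E2 and 517, 661 and 907 in KO intact, so replicate 2 held the most and replicate 1 the least epithelial signal of all 6 libraries. Without KO E2 replicate 2, 6 members were lower, without KO E2 replicate 3, 1 was, and without KO E2 replicate 1 or KO intact replicate 1 or 4 none was. Gland genes fell in 2 of 11 tested members, beside the same 10.2%. Cxcl15, a chemokine of uterine glands, was at 0.0371, 0.0707 and 0.0308 FPKM against 2.07, 2.35 and 6.51 (-2.03 ± 0.46, adjusted p = 0.00478), called in every fit, and Foxa2, the factor that glands need to form, was at 0.165, 1.15 and 0.872 FPKM against 3.19, 5.36 and 6.18 (-1.78 ± 0.59, adjusted p = 0.0387), which was called in only 1 of the 6 fits.

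Squamous differentiation genes were higher in 7 of 14 tested members, beside 15.8% of all genes tested, with a median of 1.92. Ly6d, a surface protein of stratified epithelium, was at 50.9, 186 and 304 FPKM in KO E2 and 0.13, 0.154 and 0.188 in KO intact (6.96 ± 0.77, adjusted p = 1.13e-05). Sprr1b, a cornified envelope precursor, was at 26.8, 69.8 and 389 FPKM against 0, 0.521 and 0.551 (6.10 ± 0.73, adjusted p = 2.22e-05). Both were led by replicate 3 and held in every fit. The basal keratin Krt5 was at 12.5, 32.1 and 104 FPKM against 4.22, 7.88 and 10.1 (2.17 ± 0.69, adjusted p = 0.0317). In all 18 libraries Krt15 ran at 0.780 to 1.05 and Krt14 at 0.585 to 1.02 of the level of Krt13, and these keratins may share reads. The list had 2 calls without KO E2 replicate 2, KO E2 replicate 3 or KO intact replicate 1, and 4 without KO intact replicate 3.

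Markers of other tissues differed as well, beside 15.8% of all genes tested called higher and 10.2% lower. Adipocyte genes rose in 7 of 10 tested members, and their sum was 471, 17.2 and 2542 FPKM in KO E2 and 17.1, 13.5 and 10.6 in KO intact, high in replicates 3 and 1 and near the intact level in replicate 2. Adiponectin (Adipoq) was at 16.4, 0.0556 and 97.2 FPKM in KO E2 and listed at 0 in KO intact, and Fabp4, the fatty acid carrier of fat cells, macrophages and capillaries, was at 147, 4.73 and 957 FPKM against 0.309, 0.449 and 0.965 (5.91 ± 1.55, adjusted p = 0.0117). Without any 1 of the libraries other than KO E2 replicate 2, 3 adipocyte members were called. Hemoglobin genes rose in 3 of 3 tested members, and the erythrocyte markers summed to 386, 82.6 and 592 FPKM in KO E2 and 47.7, 70.0 and 38.2 in KO intact. Hba-a1 ran at 1.006 to 1.015 of the level of Hba-a2 in all 18 libraries, so reads may have been split between these copies. With only the compared groups fitted, no adipocyte or hemoglobin gene was called. Lymphatic endothelium genes fell in 3 of 8, with Mmrn1, multimerin 1, at 0.527, 0.487 and 1.25 FPKM against 9.28, 13.8 and 4.29 (-2.43 ± 0.46, adjusted p = 0.00138) and Lyve1, a hyaluronan receptor, at 2.56, 1.07 and 4.55 FPKM against 11.9, 18 and 5.19 (-1.74 ± 0.45, adjusted p = 0.0112). Without KO intact replicate 3, the library with the most lymphatic signal, 1 of the 3 was called, and without KO intact replicate 1, 2 were. Blood endothelium markers overlapped between groups, at 90.8, 26.3 and 89.2 FPKM in KO E2 and 48.6, 125 and 53.9 in KO intact. Their part in the gene group differences above was not tested.

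The same comparison in WT mice called 1937 genes, 13.9% of those tested, with 1379 higher (9.92%) and 558 lower (4.01%). After quantile normalization, 1338 were higher and 2243 lower. Without WT E2 replicate 2 there were 1085 calls, and without WT intact replicate 1 there were 1223. Of the 15 genes that rose most in KO E2, 11 were called higher in WT E2 as well, and of the 15 that fell most, 2 were called in WT. Saa3 was at 106, 381 and 1309 FPKM in WT E2 and 0.0426, 0.0498 and 0.969 in WT intact (8.19 ± 1.37, adjusted p = 0.00110), and Esr1 was at 4.95, 2.99 and 10.0 FPKM in WT E2 and 11.5, 12.8 and 14.6 in WT intact (-1.12 ± 0.33, adjusted p = 0.0341). Hemoglobin, antigen presentation and complement genes were called in 3 of 3, 9 of 14 and 8 of 20 WT members, all higher. Hba-a1 and Hba-a2 may share reads here too. No smooth muscle gene was called in WT in either direction, with a median of 0.71, and of 24 neutrophil genes 7 were. The contractile markers summed to 439, 1007 and 245 FPKM in WT intact and 1500, 1328.5 and 461 in WT E2. The KO E2 sums of 493, 463 and 600.2 FPKM thus lay within the WT intact range. The neutrophil markers, Ltf included, summed to between 229 and 2685 FPKM in WT E2. Their sums were 293 and 651 in WT intact replicates 2 and 4 and lower in replicate 1, so the sums of the WT groups overlapped.

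A call in KO and not in WT does not show a difference, so the difference of the KO and WT responses was tested directly. It was called for 279 genes, 2.01% of those tested, 194 with a higher response in KO (1.4%) and 85 with a lower one (0.612%). The balance of these directions was not stable: it was 113 higher and 148 lower under a replicate block, 14 and 19 with a filter of 5 FPKM, 13 and 19 with only the compared groups fitted, and 120 each way without WT intact replicate 2. Neutrophil genes took 7 of these calls, among them Camp and Ngp. Camp was at 0.141, 0.844 and 0.371 FPKM in WT E2 and was listed at 0 in all WT intact libraries, and its response was higher in KO (adjusted p = 0.00582). Csf3r was at 0.713, 1.32 and 1.58 FPKM in WT E2 and 0.331, 0.33 and 0.0136 in WT intact, and its response was higher by 2.30 ± 0.33, adjusted p = 0.00547. None of the 15 largest increases passed this test, Saa3 among them (3.40 ± 1.94, adjusted p = 0.560), and Esr1 did not pass it (-1.48 ± 0.46, adjusted p = 0.134). Among smooth muscle genes Cnn1 (-4.43 ± 0.99, adjusted p = 0.0328) and Actn1 (-1.67 ± 0.27, adjusted p = 0.00820) passed.

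Some epithelial genes went in opposite directions in the 2 genotypes. Cldn2, a pore-forming claudin of tight junctions, was at 0.349, 4.93 and 0.94 FPKM in KO E2 and 6.47, 7.36 and 17.7 in KO intact. In WT mice it was at 22.2, 16.6 and 38.2 FPKM in WT E2 and 0.411, 0.247 and 0.716 in WT intact. It was thus lower in every KO E2 library than in every KO intact one (-2.08 ± 0.45) and higher in every WT E2 library than in every WT intact one (4.12 ± 0.45), and the difference passed the test (-6.20 ± 0.64, adjusted p = 0.00105). Ntn1, the guidance factor netrin 1, followed the same pattern (-1.66 ± 0.40 in KO, 2.52 ± 0.40 in WT), as did Ppp1r1b, a phosphatase inhibitor (-3.10 ± 0.43 and 1.91 ± 0.43). Scgb3a1, a secretoglobin of secretory epithelium, was at 3.03, 80.1 and 1.08 FPKM in KO E2 and 0.0719, 0.254 and 0.254 in KO intact, and it was at 301, 981 and 1472 FPKM in WT E2 and 0, 0 and 0.413 in WT intact, where 2 of the 3 levels were listed at 0. It was higher in E2 in both genotypes, by far less in KO (-6.51 ± 1.37, adjusted p = 0.0241). Replicate 2, the KO E2 library with the most epithelial signal, also had the highest KO E2 level of Cldn2, Ntn1 and Scgb3a1, and the part of epithelial content in these differences was not tested. The number of genes whose response differed between genotypes was 121, 146 and 169 without KO intact replicate 1, 3 and 4, 137 without WT E2 replicate 1, and 716 without KO E2 replicate 2.

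**Figure D4:**
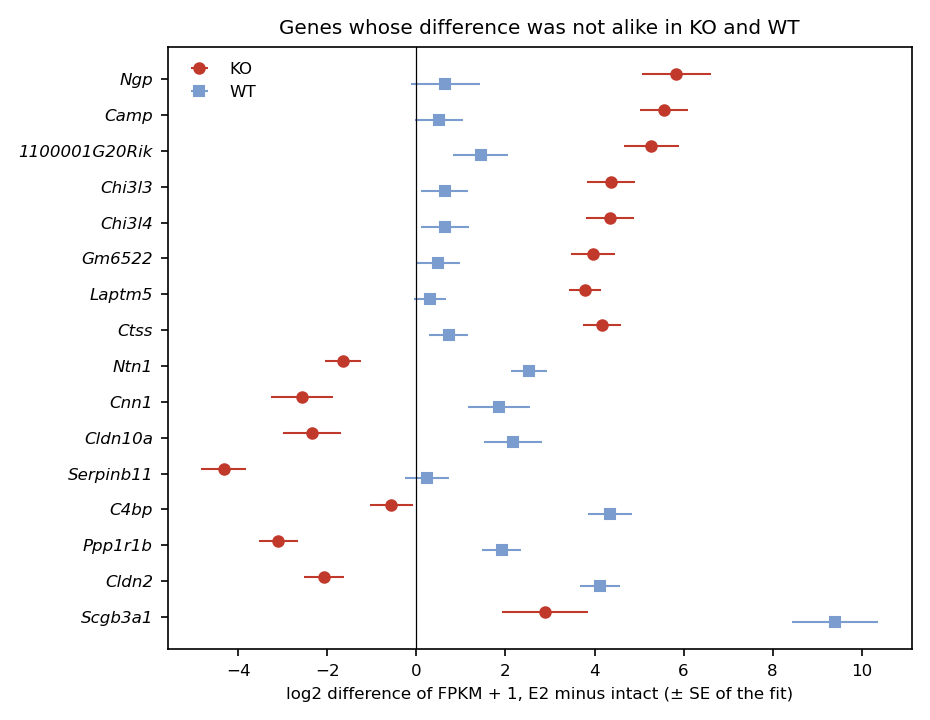
Log2 difference of FPKM + 1 between E2 and intact in KO and in WT mice, with SE bars, for the 8 genes whose KO difference most exceeded that in WT and the 8 whose KO difference lay farthest under it. Myeloid genes such as Ngp and Camp differ in KO and lie near 0 in WT, and Cldn2, Ntn1 and Ppp1r1b lie on opposite sides of 0.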

How the data were processed

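Per the labels, uteri were flash frozen, and libraries made with a stranded TruSeq mRNA kit were put on an Illumina single-end flow cell. The authors deposited FPKM values, a column per library, made with Cufflinks 2.0.2 and Cuffdiff per the submitters' processing notes. The aligner, annotation, genome build and any further scaling between libraries are not given in the sources used here, and FPKM hold no read counts, so depth is unknown and no counting interval is given. The table's positions could not be placed on GRCm38 and none is printed.

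FPKM + 1 were put on the log2 scale. Genes with at least 1 FPKM in at least 3 of 18 libraries were fitted with limma 3.58.1 in R 4.3.3 (group means, eBayes with trend, two-sided, Benjamini-Hochberg over 13898 genes within each contrast). The contrasts were E2 minus intact in KO, the same in WT, and their difference. The script was tested on simulated data. Named genes were the 15 largest called differences each way with no overlap between libraries and a mean of 5 FPKM or more in either group, the 8 largest each way for the difference between genotypes, Tsc2, and members of 34 textbook gene lists, some of which are not reported here. The members and lists were chosen with earlier results of these data known. Sets of libraries, 4 by choice, were formed from ratios of values up to 0.05 FPKM. Replicate numbers 1 and 3 occur in both groups, and libraries with the same number did not deviate together (r = 0.0123 and -0.0822 across genes), so no pairing was used. Alternatives were other pseudocounts, filters, scalings, a replicate block, robust eBayes, a fit of the compared groups alone, and leaving out each library. Promoters came from a RefSeq table on GRCm38.p6, matched by symbol for 8748 of 13898 tested genes. Python 3.11.15 with pandas 2.3.3, scipy 1.17.1 and matplotlib 3.10.9 was used for summaries and plots.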

Additional observations from a re-analysis of the deposited data

Results flagged for a closer look

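The difference between the KO and the WT response to E2 (log2, KO minus WT) passed the test in limma for 27 of the 28 genes given here, which were flagged because 2 genotypes differed under the same contrast. Higher responses in KO were found for the myeloid genes Ngp 5.19 (adjusted p = 0.0252), Camp 5.05 (adjusted p = 0.00582), Fpr2 3.06 (adjusted p = 0.0119), Csf3r 2.30 (adjusted p = 0.00547), Elane 2.03 (adjusted p = 0.0110), Cxcr2 1.73 (adjusted p = 0.0328), Fcgr1 1.26 (adjusted p = 0.0388) and C5ar1 2.32 (adjusted p = 0.0154). The chitinase-like genes Chi3l3 3.73 (adjusted p = 0.0197), Chi3l4 3.72 (adjusted p = 0.0207) and Gm6522 3.5 (adjusted p = 0.0187) may share reads. Chi3l4 ran at 0.959 to 1.03 and Gm6522 at 0.690 to 1.13 of the level of Chi3l3, each over 7 libraries. The other higher ones were Laptm5, a lysosomal protein of blood cells, 3.47 (adjusted p = 0.00547), Ctss 3.44 (adjusted p = 0.0123) and 1100001G20Rik 3.83 (adjusted p = 0.0342).

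Lower responses in KO were found for the epithelial genes Scgb3a1 -6.51 (adjusted p = 0.0241), Cldn2 -6.20 (adjusted p = 0.00105), Cldn10a -4.51 (adjusted p = 0.0208) and Ntn1 -4.18 (adjusted p = 0.00547). C4bp, a complement inhibitor, was at 0.0246, 2.58 and 0.0172 FPKM in KO E2 and 0.523, 1.36 and 2.33 in KO intact, did not pass the test in KO (-0.56 ± 0.49), rose by 4.34 ± 0.49 in WT and differed by -4.91 (adjusted p = 0.00547). Ppp1r1b differed by -5.01 (adjusted p = 0.00447), Serpinb11 by -4.57 (adjusted p = 0.00619) and Egfl6 by -3.60 (adjusted p = 0.0302). The contractile genes Cnn1 -4.43 (adjusted p = 0.0328) and Actn1 -1.67 (adjusted p = 0.00820) were lower in KO E2 and not called in WT. Fst, follistatin, differed by -1.47 (adjusted p = 0.0204), and Wif1, a WNT inhibitor, by -1.97 (adjusted p = 0.0110). Foxj1, a factor of ciliated cells, differed by -1.76 (adjusted p = 0.0371). Hpgds, a prostaglandin D synthase, missed the threshold at -2.55 (adjusted p = 0.0585), and was listed because every KO E2 library was below every KO intact one while every WT E2 library was above every WT intact one.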

How the results depend on the processing

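The KO comparison gave 1966 calls with a filter of 5 FPKM and 5772 after quantile normalization, and 2282 to 4161 when 1 library was left out, beside 3610. The WT comparison gave 1247, 3581 and, with only the compared groups fitted, 638, and 1085 to 2638 when 1 library was left out, beside 1937. The difference between genotypes gave 74 calls with a pseudocount of 0.1, 33 with the filter of 5 FPKM, 32 with only the compared groups, and 121 to 716 when 1 library was left out, beside 279. With a replicate block the counts were 4020, 2135 and 261. The block used the number in the title, which did not pair the libraries. Lower calls outnumbered higher ones after quantile normalization in KO (2143 higher, 3629 lower) and WT (1338 and 2243), without KO E2 replicate 3 in KO, and in 3 alternatives for the difference between genotypes. No named call reversed its direction. Of 221 named calls, 123 held whichever library was left out, 63 were lost with only the compared groups fitted and 22 under the block, and the cause was not tested. Depth is unknown, so levels near 0 cannot be bounded, and 3 libraries a group limit the precision of every value.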

Other observations

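Smaller gene groups of KO E2 against KO intact were mixed, beside 15.8% of all genes tested called higher and 10.2% lower. Of 17 prostaglandin genes 4 rose and 2 fell. Ptges, the inducible prostaglandin E synthase, was at 29.5, 1.7 and 10.9 FPKM against 0.492, 0.496 and 0.726 (2.66 ± 0.55, adjusted p = 0.00235), and Tbxas1, thromboxane synthase, was at 1.99, 3.58 and 6.48 FPKM against 0.0954, 0.0983 and 0.158 (2.07 ± 0.29). Both were called whichever library was left out. Of 23 activin, BMP and WNT genes 2 rose and 3 fell. Among them, Wif1, a WNT inhibitor, was at 0.028, 0 and 0.00784 FPKM against 3.33, 2.58 and 5.95 (-2.23 ± 0.24), and Fst, the activin binder follistatin, was at 1.51, 0.802 and 1.05 FPKM against 2.34, 3.91 and 6.26 (-1.23 ± 0.21). Igf2, a growth factor, was at 0.341, 0.222 and 0.594 FPKM against 0.962, 6.41 and 1.46 (-1.26 ± 0.35, adjusted p = 0.0166). Of 13 fluid channel genes 2 rose and 1 fell, with a median of -0.89, and none was called with only the compared groups fitted. Aqp3, a water and glycerol channel, was at 6.47, 1.27 and 51.4 FPKM against 0.0387, 0.0891 and 0.0915 (3.16 ± 0.70, adjusted p = 0.00402).

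Of 27 cell cycle genes 4 fell and none rose, with a median of -0.48, and 10.2% of all genes tested were called lower. Mcm2, a subunit of the replicative helicase, was at 1.7, 1.79 and 4.67 FPKM against 5.51, 5.97 and 6.92 (-1.02 ± 0.33, adjusted p = 0.0327), and Mki67, a proliferation marker, was at 2.0, 1.86 and 7.55 FPKM against 9.74, 3.17 and 9.44 (-0.89 ± 0.52, adjusted p = 0.221). No cell cycle gene was called with only the compared groups fitted, under a replicate block, or without KO E2 replicate 1 or 2 or KO intact replicate 1 or 4, and 8 members were without KO E2 replicate 3. Of 21 sterol and fatty acid synthesis genes 3 rose and none fell, beside 15.8% of all genes tested called higher, with a median of 0.30. Srebf1, a regulator of fatty acid synthesis, was at 8.38, 6.66 and 21.2 FPKM against 1.92, 1.68 and 2.42 (1.97 ± 0.30, adjusted p = 0.000188). Of 28 nuclear-encoded oxidative phosphorylation genes 2 rose and none fell, while after quantile normalization 1 was higher and 8 were lower. None of the 12 steroid metabolism genes tested passed in limma.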
